A study of Homo sapiens with 16 samples.

Results

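The cell cycle is the ordered series of steps by which a cell copies its DNA and divides. A list of 57 genes of cyclins, cyclin-dependent kinases, DNA replication, mitosis and cell cycle inhibition was followed in cardiomyocytes derived from human pluripotent stem cells (hPSC-CMs). The 57 genes were taken by name from the 43388 genes of the deposited expression table, and each of them was found there. The cells came from WTC11, an established human induced pluripotent stem cell line of wild-type genotype, and were differentiated by the GiWi protocol, which directs cells to the cardiac fate by activating and then inhibiting Wnt signaling. At Day 16 the cultures, in RPMI/B27 (RPMI 1640 with the B27 supplement), were either collected or moved to 1 of 3 media until Day 30. These were standard RPMI/B27, RPMI_glcM/B27, an RPMI/B27 with its glucose set to 5 mM to match HPLM, and HPLM/B27, in which human plasma-like medium replaces RPMI 1640. Each of the 4 groups held 4 wells, 16 libraries in all. The study describes the wells as independent wells of a single differentiation that had passed through frozen cardiac progenitors, so that p-values measure the spread between wells and not between differentiations or donors.

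Entry into the cycle is set by D-type cyclins with CDK4 and CDK6, which phosphorylate the pocket protein RB1 and release E2F transcription factors. E2F factors switch on genes for origin licensing, DNA synthesis and nucleotide supply in G1 and S phase. Later, in G2 and M phase, a complex of MuvB proteins with MYBL2 and FOXM1 switches on the genes for cyclin B, the spindle, the kinetochore and cytokinesis. Cardiomyocytes of the embryonic heart divide, and most leave the cycle around birth. The CDK inhibitors CDKN1A, CDKN1B and CDKN1C and the INK4 protein of CDKN2A hold cyclin-CDK complexes back.

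Expression was given as TPM, transcript abundance per gene length scaled to sum to 1000000 in each library. The values corresponded to 7744784 to 16183695 whole reads on genes per library. A gene was tested if its mean over the 16 libraries was at least 1 TPM, which 16122 genes and 54 of the 57 cell cycle genes passed. Differences are given on the log2(TPM + 1) scale with their standard error (SE) from limma, and a gene was called higher or lower at a Benjamini-Hochberg adjusted p under 0.05 over all genes tested. Several libraries stood apart. HPLM/B27 replicate 2 had the lowest value of all 16 libraries for 18 of the 21 tested mitosis genes (85.7%), against 2.77% of all genes tested. Day 30 RPMI/B27 replicates 3 and 4 held 14387 and 29276 TPM of the ribosomal RNA gene RNR1, against 49.5 to 6806 TPM in the other 14 libraries. Calls that were lost without 1 of these libraries are named.

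The labelled cell type was borne out by its markers. The 10 cardiomyocyte-like markers, all tested, summed to between 11573 and 16149 TPM in every library. Markers of other cells were also present, and most of their sums were lower at Day 30, as the mitosis genes were. The 11 hepatic endoderm-like markers (9 tested, FOXA2 under 1 TPM in every library) summed to 437 to 752 TPM at Day 16, 145 to 242 in RPMI/B27 at Day 30, 51.0 to 109 in RPMI_glcM/B27 and 52.6 to 119.6 in HPLM/B27. The 10 fibroblast-like markers (7 tested, THY1 under 1 TPM in every library) summed to 241 to 439 TPM at Day 16 and to 152 to 302, 119 to 164 and 123 to 188 TPM in the 3 Day 30 media in the same order. The 6 smooth muscle-like markers (5 tested, MYH11 under 1 TPM throughout) summed to 369 to 825, 235 to 997, 261 to 343 and 278 to 497 TPM in the 4 groups. Of the 8 endothelial-like markers only KDR was tested, TIE1, VWF, ERG and EMCN stayed under 1 TPM everywhere, and the sum went from 42.7 to 54.8 TPM at Day 16 to 13.6 to 31.6 TPM across the Day 30 libraries. Of the 6 pluripotent-like markers, POU5F1, NANOG, DPPA4 and SOX2 stayed under 1 TPM everywhere, while the sum of the list, held by TDGF1 and LIN28A, was 48.0 to 65.1 TPM at Day 16 and 8.08 to 29.5 TPM at Day 30. The part of these cells in the cell cycle results was not tested. In bulk RNA, fewer cells of a dividing kind and less cell cycle RNA per cell cannot be told apart.

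The share of promoters that held each motif differed with the role of the genes. RefSeq promoter windows (GRCh38.p14, 250 bases before and 50 after a start) were found for 44 of the 57 genes, and 3 motifs were searched on both strands. These were the E2F motif (TTTGGCGC, TTTCCCGC, TTTCGCGC or TTTGCCGC), the cell cycle genes homology region or CHR (TTTGAA), which MuvB complexes bind, and the CCAAT box (CCAAT), which NF-Y binds. A CHR was found in 12 of 16 mitosis genes (75.0%) and 1 of 11 replication genes (9.09%), against 14.9% of the 10835 tested genes with a window. An E2F motif was found in 8 of 11 replication genes (72.7%) and 1 of 16 mitosis genes (6.25%), against 6.27% of tested genes. The CCAAT box was held by 13 of 16 mitosis genes and 8 of 11 replication genes, against 42.8%. Over all 35116 windows of the table the shares were 3.31% for E2F, 15.2% for CHR and 34.6% for CCAAT. The promoters of 5 genes are shown because they hold the motifs of each role, each as the 250 bases before the start on the gene's own strand, with motif matches in capitals. CDC20, PLK1 and MKI67, mitotic genes, have CHR and CCAAT matches (in MKI67 a CHR and a CCAAT match at positions -29 and -24 overlap by 1 base), and TYMS and MCM3, of DNA synthesis and licensing, have an E2F match each. MCM3 was added after its match was seen, and the others are the 4 members with the smallest adjusted p in RPMI/B27 whose window held a CHR or E2F match.
CDC20, chr1:43358731-43358980, plus strand: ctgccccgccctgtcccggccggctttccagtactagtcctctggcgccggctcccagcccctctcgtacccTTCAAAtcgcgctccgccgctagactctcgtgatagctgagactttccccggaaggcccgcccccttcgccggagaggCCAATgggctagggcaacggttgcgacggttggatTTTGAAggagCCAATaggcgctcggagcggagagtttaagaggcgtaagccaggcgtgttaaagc
PLK1, chr16:23678639-23678888, plus strand: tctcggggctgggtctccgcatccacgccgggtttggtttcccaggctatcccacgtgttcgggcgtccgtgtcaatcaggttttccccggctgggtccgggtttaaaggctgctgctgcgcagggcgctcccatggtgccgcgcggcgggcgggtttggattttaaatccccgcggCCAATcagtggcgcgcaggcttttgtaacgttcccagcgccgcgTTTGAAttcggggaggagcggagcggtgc
MKI67, chr10:128126424-128126673, minus strand: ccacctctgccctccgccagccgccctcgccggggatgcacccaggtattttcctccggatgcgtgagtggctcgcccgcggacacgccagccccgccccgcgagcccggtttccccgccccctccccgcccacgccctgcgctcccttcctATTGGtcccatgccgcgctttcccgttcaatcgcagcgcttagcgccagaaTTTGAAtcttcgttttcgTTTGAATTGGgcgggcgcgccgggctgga
TYMS, chr18:657403-657652, plus strand: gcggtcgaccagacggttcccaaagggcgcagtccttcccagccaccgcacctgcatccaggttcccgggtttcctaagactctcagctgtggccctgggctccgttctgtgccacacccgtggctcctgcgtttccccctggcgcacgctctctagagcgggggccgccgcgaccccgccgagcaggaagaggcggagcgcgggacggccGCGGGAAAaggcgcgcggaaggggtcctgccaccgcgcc
MCM3, chr6:52284743-52284992, minus strand: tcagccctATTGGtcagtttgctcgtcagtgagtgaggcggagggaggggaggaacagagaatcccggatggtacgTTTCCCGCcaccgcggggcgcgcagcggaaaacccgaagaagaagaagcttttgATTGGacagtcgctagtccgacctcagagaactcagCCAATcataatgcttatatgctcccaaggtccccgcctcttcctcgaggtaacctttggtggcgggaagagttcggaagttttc

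**Figure D1:**
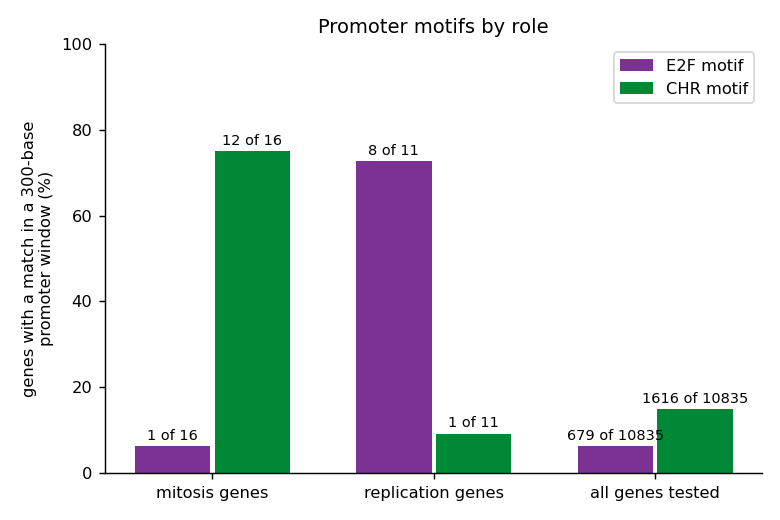
Share of genes (%) with at least 1 E2F or CHR match in a 300-base promoter window, for 16 mitosis genes, 11 replication genes and the 10835 tested genes that had a window. The bars carry the counts, with CHR in 12 of 16 mitosis genes and E2F in 8 of 11 replication genes.

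Levels at Day 30 were compared with Day 16 to ask how 2 weeks of further culture in each medium went with cell cycle expression. The genes of mitosis fell in all 3 media. Most genes of origin licensing, the D-type cyclins, CDKN1B and RB1 were not called in the fit described above. Of 54 genes tested, 27 were lower and 0 higher in RPMI/B27, against 17.8% of all genes called lower and 2.08% called higher. In RPMI_glcM/B27, 35 were lower and 1 (CDK4) higher, against 17.8% and 3.34% of all genes. In HPLM/B27, 34 were lower and 0 higher, against 22.4% and 3.00%. Over the 3 comparisons 26 genes were lower in all 3, 7 in 2, 4 in 1 and 17 in none. The comparisons share the Day 16 libraries, which by itself makes their calls overlap. The overlap was not counted over all genes, so these numbers have no share to be set against. The median differences of the 54 genes were -0.63, -0.94 and -0.77 in the 3 media, against -0.28, -0.22 and -0.29 for all genes tested.

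The shift of all genes depended on the scaling, since TPM fix only the sum of a library. The ribosomal RNA gene RNR2 alone held 41.4 to 43.9% of TPM at Day 16 and 41.0 to 48.1% in RPMI/B27. It held 42.0 to 45.5% in RPMI_glcM/B27 and 46.2 to 48.3% in HPLM/B27, and a larger share leaves less TPM for other genes. Scaled without mitochondrial, ribosomal RNA, RN7SK and RN7SL genes, 18, 33 and 24 cell cycle genes were lower, against 2084, 2635 and 2457 of all 16092 genes. Scaled by median of ratios, which sets the typical gene to no change, calls among all genes split into 1413 higher and 1413 lower in RPMI/B27, where TPM gave 336 higher and 2867 lower. On that scale 12 cell cycle genes were lower and 0 higher in RPMI/B27, against 8.76% of all genes lower. RPMI_glcM/B27 had 28 lower and 2 higher (CDK4 and MCM4), against 13.6% lower. HPLM/B27 had 22 lower and 3 higher (CCND1, CDK4 and MCM4), against 11.9% lower. The median difference of the 54 genes was then -0.33, -0.71 and -0.43. Of the 21 mitosis genes 19, 21 and 21 were called lower on TPM and 8, 18 and 14 after scaling. Replication genes numbered 1, 6 and 4 of 13 on TPM and 0, 3 and 1 after scaling.

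Many of the calls did not hold in every setting. In RPMI/B27 15 of 27 were lost after median-of-ratios scaling, among them 11 mitosis genes (TOP2A, UBE2C, BUB1B, MAD2L1, ANLN, CENPE, CENPF, KIF11, KIF20A, KIF23 and PRC1), and 11 were lost when some library was left out (ANLN, CCNA2, CDK6, CDKN1A, CENPF, KIF11, KIF23, MAD2L1, PRC1, TOP2A and UBE2C). Without the RNR1-rich replicate 3 or replicate 4, 9 and 10 were lost. With RNR1 as a covariate 14 were lost (ANLN, BUB1, CCNA2, CDK6, CDKN1A, CENPF, KIF11, KIF20A, KIF23, MAD2L1, PRC1, TOP2A, TTK and UBE2C). In RPMI_glcM/B27 7 of 36 were lost after scaling and 7 when some library was left out (CDC25C, CDK4, CDT1, MCM5, RRM2, TK1 and UBE2C). In HPLM/B27 12 of 34 were lost after scaling and 7 when some library was left out (AURKA, AURKB, CDC25C, CDK1, CDK6, MCM3 and RRM1). Scaling also turned the sign of 6, 4 and 8 of the 54 differences in the 3 media, none of them called on TPM. Other settings added lower calls. In RPMI/B27 replicate number as a block added CCND2, CDC25A, CDT1, MCM3, MCM4, MCM7, RRM1 and TK1. Leaving out RPMI/B27 replicate 2 added 10 genes, among them CCND2, CDKN1B, MCM3, MCM4, MCM7 and PCNA. In these settings 4292 and 4705 of all 16122 genes were lower.

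**Figure D2:**
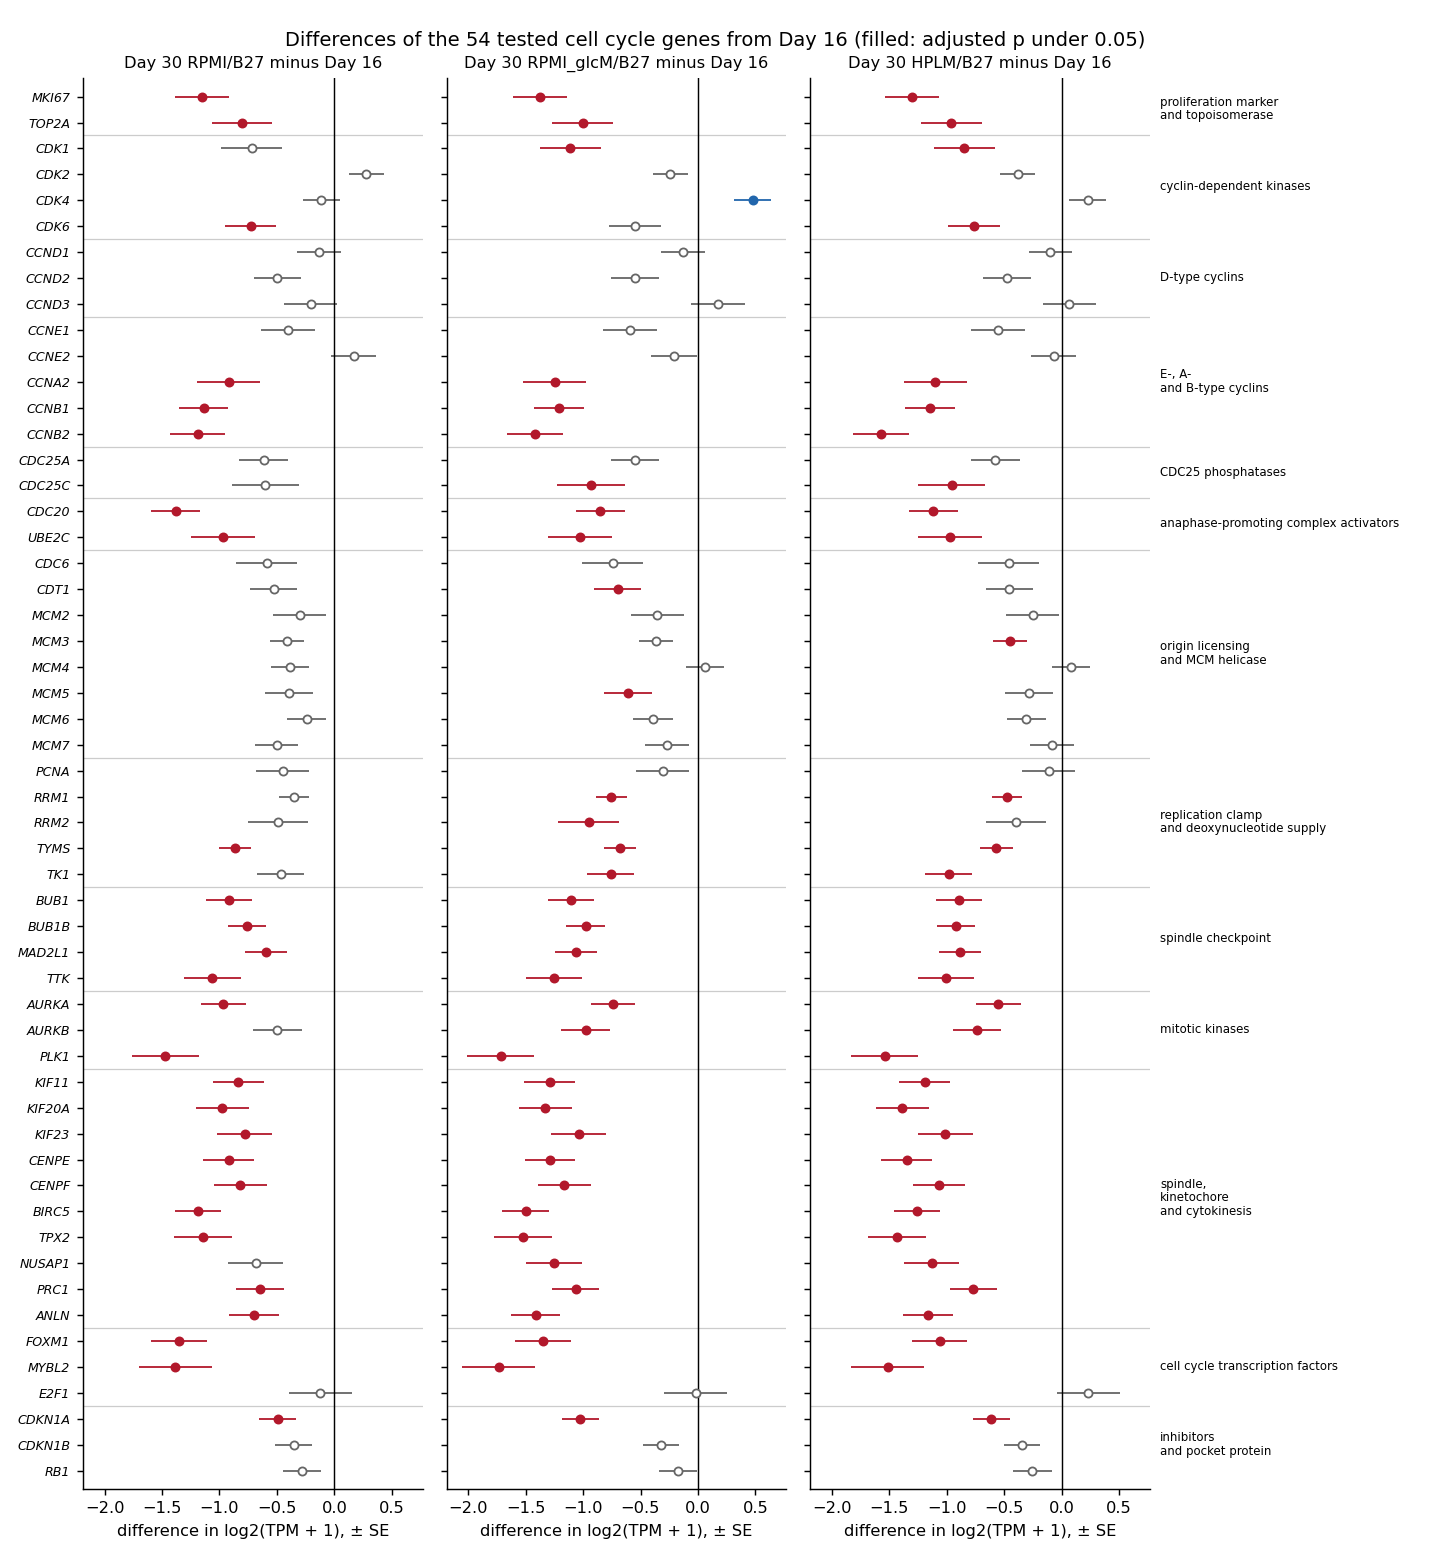
Differences in log2(TPM + 1) from Day 16 (horizontal axis, point and SE) of the 54 tested cell cycle genes, grouped by role, in the 3 Day 30 media. Filled points passed an adjusted p of 0.05 (red lower, blue higher), and the mitosis roles lie mostly between -0.5 and -1.7 while D-type cyclins and MCM genes lie nearer to 0.

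MKI67 (chr10:128096659-128126423), which encodes the Ki-67 protein that coats mitotic chromosomes and marks cycling cells, fell in every medium. It stood at 37.5, 42.98, 36.1 and 34.05 TPM in the Day 16 libraries, 18.2, 16.01, 15.6 and 15.7 in RPMI/B27, 16.99, 14.5, 12.03 and 12.5 in RPMI_glcM/B27 and 16.5, 6.84, 19.4 and 20.1 in HPLM/B27. No Day 30 library reached the lowest Day 16 value, and HPLM/B27 replicate 2 was the lowest of all. The differences were -1.15 ± 0.24 (SE, limma adjusted p = 0.0036), -1.37 ± 0.24 (SE, limma adjusted p = 0.00064) and -1.304 ± 0.24 (SE, limma adjusted p = 0.00098). TOP2A, the topoisomerase that untangles sister chromatids, stood at 95.3, 123, 104 and 90.04 TPM at Day 16, 67.3, 64.98, 48.5 and 53.9 in RPMI/B27, 57.3, 54.98, 43.4 and 47.4 in RPMI_glcM/B27 and 49.4, 24.7, 76.6 and 77.8 in HPLM/B27. Its Day 16 values also lay above every Day 30 value. It changed by -0.803 ± 0.26 (SE, limma adjusted p = 0.042), -1.004 ± 0.26 (SE, limma adjusted p = 0.012) and -0.96 ± 0.26 (SE, limma adjusted p = 0.015), and none of these passed the test after median-of-ratios scaling (limma adjusted p = 0.28, 0.061 and 0.12). Separation of the days, here and below, was not counted over all genes tested and has no share to be set against. On TPM 12906 of all 16122 genes had a negative difference in RPMI/B27.

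**Figure D3:**
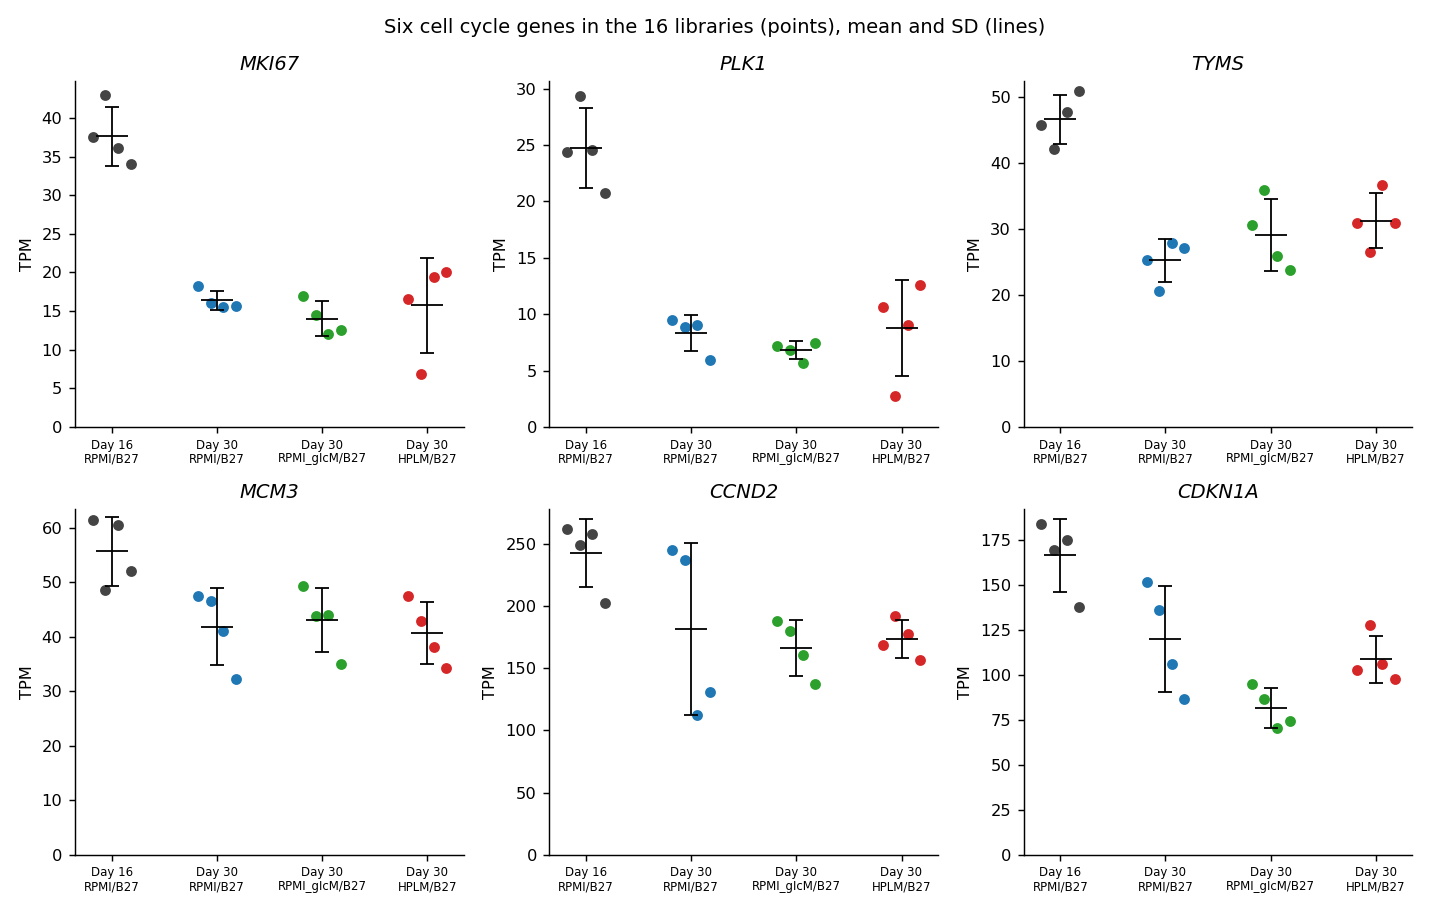
TPM (vertical axes, from 0) of 6 cell cycle genes in the 4 wells of each group, with mean and SD. MKI67, PLK1 and TYMS show no overlap between Day 16 and any Day 30 well, MCM3 and CCND2 differ less, and CDKN1A is lowest in RPMI_glcM/B27, between 70.5 and 94.9 TPM. Such separation of the days was not counted over all genes.

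Calls among the cyclins differed by type, though CCNE1 also had negative differences in each medium. Cyclins A and B, partners of CDK1 and CDK2 in S phase and mitosis (CCNA2, CCNB1 and CCNB2), were lower in all 3 media. The E-type cyclins of the G1 to S step (CCNE1 and CCNE2) were called in none with all 16 libraries in 1 fit. CCNB1 stood at 54.4, 69.5, 63.3 and 56.7 TPM at Day 16, 33.03, 34.99, 23.1 and 19.9 in RPMI/B27, 29.5, 28.1, 20.6 and 25.3 in RPMI_glcM/B27 and 25.3, 16.9, 33.98 and 35.5 in HPLM/B27, without overlap between the days. It changed by -1.14 ± 0.22 (SE, limma adjusted p = 0.0023), -1.21 ± 0.22 (SE, limma adjusted p = 0.0009) and -1.15 ± 0.22 (SE, limma adjusted p = 0.0014). CCNB2 changed by -1.19, -1.42 and -1.57, and CCNA2 by -0.92, -1.25 and -1.099, the first of which was not called after scaling (-0.59, limma adjusted p = 0.13). CCNE1 had differences of -0.405, -0.59 and -0.55 (limma adjusted p = 0.22, 0.082 and 0.09), and CCNE2, at 0.909 to 1.51 TPM by group mean, had 0.17, -0.21 and -0.07. Without HPLM/B27 replicate 2, CCNE1 was called lower in HPLM/B27 (-0.73, limma adjusted p = 0.037). With only the 2 groups compared in the fit, it was called lower in RPMI_glcM/B27.

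D-type cyclins answer to growth signals, and none of the 3 was called at Day 30 in the fit described above, though CCND2 was in other settings. By mean TPM, a level per length, CCND2 and CCND1 stood above the other listed cyclins in each group. CCND2 (chr12:4273762-4305353) stood at 262, 249.7, 258 and 203 TPM at Day 16, 245, 237, 112 and 131 in RPMI/B27, 188, 180.2, 161 and 137 in RPMI_glcM/B27 and 169, 192, 178 and 156 in HPLM/B27, the highest mean of the 57 genes. RPMI/B27 replicates 1 and 2 lay within the Day 16 range and replicates 3 and 4, the ones rich in RNR1, far below it, whereas the other 2 media lay wholly below Day 16. The differences were -0.496 ± 0.21 (SE, limma adjusted p = 0.099), -0.55 ± 0.21 (SE, limma adjusted p = 0.074) and -0.48 ± 0.21 (SE, limma adjusted p = 0.1). Without RPMI/B27 replicate 1 or replicate 2 the first was called (-0.67 and -0.65, limma adjusted p = 0.024 and 0.029). With replicate number as a block, CCND2 was called lower in all 3 media (limma adjusted p = 0.039 in RPMI/B27). With only the 2 groups compared it was called lower in RPMI_glcM/B27 and HPLM/B27, and by limma-voom on the recovered reads in RPMI_glcM/B27. After scaling it was -0.16 in RPMI/B27 and -0.13 in HPLM/B27 (limma adjusted p = 0.33 and 0.39). CCND1 (chr11:69641156-69654474) stood at 129, 145, 128 and 103 TPM at Day 16, 159.7, 145, 93.9 and 78.8 in RPMI/B27, 131, 119.8, 116 and 95.3 in RPMI_glcM/B27 and 122, 128, 112 and 107 in HPLM/B27, overlapping throughout. Its differences were -0.13 ± 0.19 (SE, limma adjusted p = 0.63), -0.13 ± 0.19 (SE, limma adjusted p = 0.67) and -0.098 ± 0.19 (SE, limma adjusted p = 0.72), and after median-of-ratios scaling the sign turned, to 0.21 (limma adjusted p = 0.076), 0.14 (0.18) and 0.25 (0.024), so its direction is set by the scaling. CCND3 was low, with 3.95, 4.42, 4.34 and 3.94 TPM at Day 16, 4.65, 5.55, 2.82 and 1.85 in RPMI/B27, 6.74, 3.61, 5.37 and 4.06 in RPMI_glcM/B27 and 5.77, 3.92, 3.804 and 4.34 in HPLM/B27, again overlapping. It had differences of -0.203 ± 0.23 (SE, limma adjusted p = 0.54), 0.17 ± 0.23 (SE, limma adjusted p = 0.63) and 0.07 ± 0.23 (SE, limma adjusted p = 0.85), and the first turned to 0.05 after scaling.

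The 4 cyclin-dependent kinases differed in their calls. CDK6, a partner of D-type cyclins, was called lower in RPMI/B27 and HPLM/B27. It stood at 81.2, 86.3, 81.2 and 67.6 TPM at Day 16, 70.4, 69.03, 30.9 and 32.5 in RPMI/B27, 59.8, 57.5, 53.6 and 44.8 in RPMI_glcM/B27 and 44.4, 51.3, 47.6 and 41.01 in HPLM/B27. RPMI/B27 replicates 1 and 2 were close to Day 16 and replicates 3 and 4 far lower, while the other media lay below Day 16 without overlap. The changes were -0.73 ± 0.23 (SE, limma adjusted p = 0.033), -0.55 ± 0.23 (SE, limma adjusted p = 0.097) and -0.77 ± 0.23 (SE, limma adjusted p = 0.021). With RNR1 as a covariate the RPMI/B27 difference was -0.33 (limma adjusted p = 0.34), and without replicate 3 or replicate 4 it was -0.53 (limma adjusted p = 0.11) and -0.56 (limma adjusted p = 0.12). The CDK6 call was also lost without any of Day 16 replicates 1 to 3, in RPMI/B27 (limma adjusted p = 0.075 to 0.079) and in HPLM/B27 (limma adjusted p = 0.051 to 0.055), and in HPLM/B27 without its replicate 4 (limma adjusted p = 0.0599). Both CDK6 calls held after scaling (-0.40 and -0.42, limma adjusted p = 0.019 and 0.0092). In RPMI_glcM/B27 CDK6 was called lower with only the 2 groups compared, with replicate number as a block and by limma-voom on the recovered reads. CDK4, the other D-type partner, averaged 12.9 ± 2.098 TPM at Day 16 (SD, n = 4), 12.01 ± 2.86 for RPMI/B27, 18.2 ± 1.52 for RPMI_glcM/B27 and 15.3 ± 2.195 for HPLM/B27. It was the one member called higher, by 0.48 ± 0.16 (SE, limma adjusted p = 0.045) in RPMI_glcM/B27, with 0.23 ± 0.16 (SE, limma adjusted p = 0.31) in HPLM/B27 and -0.11 ± 0.16 (SE, limma adjusted p = 0.63) in RPMI/B27. The CDK4 call was lost when any of 7 of the 8 libraries was left out (limma adjusted p = 0.067 to 0.12), and held after scaling (0.73, limma adjusted p = 4.1e-06). CDK1, the mitotic kinase, fell in RPMI_glcM/B27 and HPLM/B27, with changes of -1.11 and -0.85, and had -0.72 ± 0.27 (SE, limma adjusted p = 0.067) in RPMI/B27. Its HPLM/B27 call was lost without HPLM/B27 replicate 2 (-0.57, limma adjusted p = 0.085) and after scaling (-0.503, limma adjusted p = 0.14). CDK2 is given with the comparison of the media, where it was called.

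CDC25 phosphatases remove the inhibitory phosphates of CDKs. CDC25C, which acts at mitotic entry, stood at 6.098, 5.63, 4.06 and 3.44 TPM at Day 16, 4.35, 3.23, 1.95 and 1.996 in RPMI/B27, 3.12, 1.77, 1.22 and 2.13 in RPMI_glcM/B27 and 1.304, 0.861, 3.85 and 2.57 in HPLM/B27. Only RPMI_glcM/B27 lay wholly below Day 16. It changed by -0.93 ± 0.29 (SE, limma adjusted p = 0.033) there and -0.96 ± 0.29 (SE, limma adjusted p = 0.026) in HPLM/B27, and had -0.601 ± 0.29 (SE, limma adjusted p = 0.15) in RPMI/B27. Without HPLM/B27 replicate 2 the HPLM/B27 value was -0.74 (limma adjusted p = 0.078). After scaling neither CDC25C call held, with -0.71 and -0.68 (limma adjusted p = 0.06 and 0.076). CDC25A, which acts at G1 to S, stood at 10.1, 7.03, 11.3 and 9.96 TPM at Day 16, 6.88, 8.65, 6.08 and 3.08 in RPMI/B27, 7.72, 5.93, 5.63 and 5.61 in RPMI_glcM/B27 and 5.62, 6.29, 6.23 and 5.995 in HPLM/B27, with the last group alone free of overlap. Its differences were -0.62 ± 0.21 (SE, limma adjusted p = 0.051), -0.55 ± 0.21 (SE, limma adjusted p = 0.077) and -0.58 ± 0.21 (SE, limma adjusted p = 0.055), none of them called in the fit described above. Without Day 16 replicate 2, CDC25A was called lower in all 3 media. It was also called lower in RPMI/B27 and HPLM/B27 with replicate number as a block, and in RPMI_glcM/B27 and HPLM/B27 with only the 2 groups compared. After scaling it was called in none.

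The genes that run mitosis itself made up most of the lower calls in each medium. CDC20 and UBE2C work with the anaphase-promoting complex, the ubiquitin ligase that starts chromosome separation, as its activator and its ubiquitin-conjugating enzyme. CDC20 stood at 13.9, 16.3, 15.7 and 12.6 TPM at Day 16, 7.27, 5.15, 4.22 and 3.78 in RPMI/B27, 7.604, 8.64, 8.39 and 6.13 in RPMI_glcM/B27 and 6.86, 3.62, 6.35 and 8.91 in HPLM/B27. The groups did not overlap across days, although as few as 27 reads lay behind a value. It changed by -1.38 ± 0.21 (SE, limma adjusted p = 0.00053), -0.85 ± 0.21 (SE, limma adjusted p = 0.0093) and -1.12 ± 0.21 (SE, limma adjusted p = 0.0015). UBE2C stood at 21.9, 24.6, 22.5 and 19.6 TPM at Day 16, 9.74, 12.5, 11.5 and 9.75 in RPMI/B27, 10.4, 14.7, 6.74 and 10.8 in RPMI_glcM/B27 and 12.98, 4.57, 16.2 and 13.4 in HPLM/B27, again with every Day 16 value on top. It changed by -0.97 ± 0.28 (SE, limma adjusted p = 0.024), -1.03 ± 0.28 (SE, limma adjusted p = 0.015) and -0.97 ± 0.28 (SE, limma adjusted p = 0.018), and was not called after median-of-ratios scaling (limma adjusted p = 0.17, 0.078 and 0.15).

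The spindle checkpoint holds anaphase until every kinetochore is attached, and its 4 members BUB1, BUB1B, MAD2L1 and TTK were lower in all 3 media. BUB1, a checkpoint kinase, stood at 50.6, 58.4, 50.3 and 42.97 TPM at Day 16, 33.6, 30.5, 21.1 and 21.4 in RPMI/B27, 24.6, 25.6, 22.7 and 18.9 in RPMI_glcM/B27 and 25.98, 17.3, 33.3 and 33.6 in HPLM/B27. No value was shared between the days. It changed by -0.92 ± 0.20 (SE, limma adjusted p = 0.0052), -1.105 ± 0.20 (SE, limma adjusted p = 0.00098) and -0.89 ± 0.20 (SE, limma adjusted p = 0.0045). The kinase TTK changed by -1.06, -1.25 and -1.01, BUB1B by -0.76, -0.98 and -0.92, and MAD2L1 by -0.59, -1.06 and -0.88. After scaling the RPMI/B27 calls of BUB1B (-0.43, limma adjusted p = 0.07) and MAD2L1 (-0.28, limma adjusted p = 0.13) were lost. With RNR1 as a covariate the RPMI/B27 calls of BUB1, MAD2L1 and TTK were lost.

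Among the mitotic kinases PLK1, which drives centrosome maturation and mitotic entry, had the largest difference in RPMI/B27. PLK1 (chr16:23678889-23690367) stood at 24.3, 29.4, 24.5 and 20.8 TPM at Day 16, 9.46, 8.89, 9.08 and 5.94 in RPMI/B27, 7.198, 6.86, 5.68 and 7.46 in RPMI_glcM/B27 and 10.7, 2.77, 9.07 and 12.6 in HPLM/B27. The Day 16 wells lay above all others, and the lowest value was that of HPLM/B27 replicate 2. It changed by -1.47 ± 0.29 (SE, limma adjusted p = 0.003), -1.72 ± 0.29 (SE, limma adjusted p = 0.00059) and -1.54 ± 0.29 (SE, limma adjusted p = 0.0014). AURKA, the spindle pole kinase, changed by -0.97, -0.74 and -0.55. The latter 2 were not called after scaling (-0.47 and -0.21, limma adjusted p = 0.056 and 0.43), nor the last without HPLM/B27 replicate 2 (-0.38, limma adjusted p = 0.14). AURKB, the kinase of the chromosomal passenger complex, was called in RPMI_glcM/B27 (-0.98) and HPLM/B27 (-0.74), with -0.496 ± 0.21 (SE, limma adjusted p = 0.10) in RPMI/B27. The HPLM/B27 call of AURKB was lost without replicate 2 (-0.64, limma adjusted p = 0.054) and after scaling (-0.45, limma adjusted p = 0.097).

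The 10 genes of the spindle, kinetochore and cytokinesis were all lower in RPMI_glcM/B27 and HPLM/B27, and 9 of them in RPMI/B27. BIRC5 encodes survivin, a subunit of the chromosomal passenger complex, and stood at 20.3, 14.7, 19.8 and 17.5 TPM at Day 16, 6.94, 7.48, 9.03 and 6.07 in RPMI/B27, 6.74, 5.37, 6.59 and 4.39 in RPMI_glcM/B27 and 7.604, 4.17, 10.2 and 6.93 in HPLM/B27. The days did not overlap. It changed by -1.19 ± 0.20 (SE, limma adjusted p = 0.0011), -1.5002 ± 0.20 (SE, limma adjusted p = 9.5e-05) and -1.26 ± 0.20 (SE, limma adjusted p = 0.00042). TPX2, a spindle assembly factor, changed by -1.15, -1.52 and -1.44, the kinesin KIF20A by -0.98, -1.33 and -1.39, and the kinetochore motor CENPE by -0.92, -1.29 and -1.35. ANLN, the contractile ring protein anillin, was the most abundant of the 10 at 105 ± 6.29 TPM at Day 16 and 39.6 ± 8.39 in RPMI_glcM/B27 (SD, n = 4), with changes of -0.698, -1.41 and -1.16. NUSAP1, which binds spindle microtubules, missed the threshold in RPMI/B27 (-0.68 ± 0.24 (SE, limma adjusted p = 0.055)) and was lower in the other media, with -1.25 and -1.13. The remaining KIF11, KIF23, CENPF and PRC1 lay between -0.65 and -1.29. After scaling 2 of the 10 (BIRC5 and TPX2) were called in RPMI/B27, and CENPF, KIF23 and PRC1 were not called in HPLM/B27.

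The transcription factors of the late cycle fell, and E2F1 was not called. FOXM1, a driver of G2 and M phase genes, stood at 17.97, 12.5, 13.02 and 13.99 TPM at Day 16, 6.68, 4.18, 5.66 and 3.801 in RPMI/B27, 4.93, 6.38, 5.34 and 3.61 in RPMI_glcM/B27 and 7.395, 3.102, 8.15 and 7.99 in HPLM/B27. Each Day 30 value lay below each Day 16 value. It changed by -1.35 ± 0.24 (SE, limma adjusted p = 0.0015), -1.35 ± 0.24 (SE, limma adjusted p = 0.0009) and -1.06 ± 0.24 (SE, limma adjusted p = 0.0048). MYBL2, the MuvB partner, changed by -1.38, -1.74 and -1.51 from 17.1 ± 3.52 TPM at Day 16 (SD, n = 4). E2F1 was at 3.23 ± 0.423 TPM at Day 16 and had -0.12 ± 0.27 (SE, limma adjusted p = 0.77), -0.02 ± 0.27 (SE, limma adjusted p = 0.97) and 0.23 ± 0.27 (SE, limma adjusted p = 0.55). E2F2 was below the level tested, between 0.383 and 0.757 TPM by group mean on 2 to 22 reads, and with all genes above 0 fitted it had -0.36, -0.35 and -0.25 (limma adjusted p = 0.23, 0.25 and 0.40).

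Fewer replication genes than mitosis genes were called. Of the 8 licensing factors (CDC6, CDT1 and MCM2 to MCM7, which load the replicative helicase onto origins) 0 were lower in RPMI/B27, 2 (CDT1 and MCM5) in RPMI_glcM/B27 and 1 (MCM3) in HPLM/B27, against 17.8%, 17.8% and 22.4% of all genes. MCM5 was not called after scaling (-0.37, limma adjusted p = 0.14). These counts depended on the setting. With replicate number as a block, CDT1, MCM3, MCM4 and MCM7 were called lower in RPMI/B27, and CDC6, MCM3 and MCM6 were added in RPMI_glcM/B27. Without RPMI/B27 replicate 2, CDT1, MCM3, MCM4 and MCM7 were likewise called lower in RPMI/B27. MCM3 stood at 61.5, 48.6, 60.6 and 52.1 TPM at Day 16, 47.6, 46.6, 41.1 and 32.2 in RPMI/B27, 49.4, 43.8, 43.9 and 35.1 in RPMI_glcM/B27 and 47.5, 42.8, 38.1 and 34.3 in HPLM/B27. RPMI/B27 and HPLM/B27 lay just below the Day 16 range and RPMI_glcM/B27 overlapped it. The differences were -0.41 ± 0.15 (SE, limma adjusted p = 0.058), -0.37 ± 0.15 (SE, limma adjusted p = 0.087) and -0.45 ± 0.15 (SE, limma adjusted p = 0.035), and after scaling -0.08, -0.0998 and -0.103, with no call. MCM4 had -0.38, 0.07 and 0.08 on TPM, uncalled with all libraries and no block. It was called higher after scaling in RPMI_glcM/B27 (0.33) and HPLM/B27 (0.42).

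TYMS, the thymidylate synthase that makes the DNA precursor dTMP, was the replication gene called in all 3 media. It stood at 45.8, 42.1, 47.8 and 50.97 TPM at Day 16, 25.4, 20.7, 27.9 and 27.2 in RPMI/B27, 30.6, 36.02, 25.9 and 23.8 in RPMI_glcM/B27 and 30.95, 26.5, 36.8 and 30.9 in HPLM/B27. The days did not overlap. It changed by -0.87 ± 0.14 (SE, limma adjusted p = 0.00083), -0.68 ± 0.14 (SE, limma adjusted p = 0.003) and -0.57 ± 0.14 (SE, limma adjusted p = 0.0086), and missed the threshold after scaling (limma adjusted p = 0.097, 0.16 and 0.48). The ribonucleotide reductase subunits RRM1 and RRM2 were lower in RPMI_glcM/B27, with -0.75 and -0.95, and RRM1 in HPLM/B27, with -0.47. After scaling RRM2 was -0.704 in RPMI_glcM/B27 (limma adjusted p = 0.077) and RRM1 -0.13 in HPLM/B27 (limma adjusted p = 0.41), both uncalled. Thymidine kinase TK1 fell in RPMI_glcM/B27 (-0.76) and HPLM/B27 (-0.98). The sliding clamp PCNA was not called with all libraries fitted, with -0.45 ± 0.23 (SE, limma adjusted p = 0.17), -0.31 ± 0.23 (SE, limma adjusted p = 0.37) and -0.11 ± 0.23 (SE, limma adjusted p = 0.75). In RPMI/B27, RRM1 and TK1 were also called lower with replicate number as a block, and RRM1 and PCNA without RPMI/B27 replicate 2.

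Neither of the 2 tested CDK inhibitors on the list was called higher at Day 30. CDKN1A (chr6:36676463-36687332), the p53 target p21, was the most abundant inhibitor and was lower at Day 30. It stood at 184, 169.7, 175 and 138 TPM at Day 16, 152, 136, 106 and 86.5 in RPMI/B27, 94.9, 86.5, 70.5 and 74.2 in RPMI_glcM/B27 and 103, 128, 106 and 98.01 in HPLM/B27. RPMI/B27 overlapped Day 16, and the other media lay below it, RPMI_glcM/B27 lowest. The changes were -0.49 ± 0.16 (SE, limma adjusted p = 0.043), -1.02 ± 0.16 (SE, limma adjusted p = 0.00035) and -0.61 ± 0.16 (SE, limma adjusted p = 0.013), and the first was lost after scaling (-0.15, limma adjusted p = 0.24). CDKN1B, p27, stood at 18.1, 24.3, 25.9 and 17.2 TPM at Day 16, 16.7, 21.8, 12.96 and 14.7 in RPMI/B27, 17.6, 16.5, 16.2 and 16.3 in RPMI_glcM/B27 and 16.9, 14.5, 18.4 and 16.1 in HPLM/B27, with overlap in each medium. It had -0.35 ± 0.16 (SE, limma adjusted p = 0.12), -0.32 ± 0.16 (SE, limma adjusted p = 0.16) and -0.34 ± 0.16 (SE, limma adjusted p = 0.12).

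The other 2 inhibitors were near the limit of detection. CDKN1C, p57, had 0, 0.647, 0.427 and 0 TPM at Day 16, 0.423, 0.191, 0.3604 and 0.1898 in RPMI/B27, 0, 0.591, 0 and 0 in RPMI_glcM/B27 and 0, 0.115, 0.402 and 1.14 in HPLM/B27, on 0 to 9 reads a library, where a count of 0 allows up to 3 reads. CDKN2A had 1.37, 1.35, 1.298 and 0.918 TPM at Day 16, 1.23, 0.873, 0.783 and 0.742 in RPMI/B27, 0.846, 1.28, 0.566 and 0.615 in RPMI_glcM/B27 and 0.754, 0.946, 0.742 and 1.05 in HPLM/B27, on 8 to 25 reads. Neither reached 1 TPM on average. With all genes above 0 fitted, CDKN2A had -0.23, -0.301 and -0.25 against Day 16 (limma adjusted p = 0.37, 0.22 and 0.29) and CDKN1C 0.06, -0.14 and 0.13 (limma adjusted p = 0.93, 0.76 and 0.78), with no call at this depth. RB1, the pocket protein, stood at 46.5, 55.3, 46.03 and 40.6 TPM at Day 16, 48.3, 50.7, 30.9 and 28.6 in RPMI/B27, 45.1, 44.1, 41.3 and 35.7 in RPMI_glcM/B27 and 37.3, 42.9, 40.4 and 36.3 in HPLM/B27, with overlap throughout. It had -0.28 ± 0.17 (SE, limma adjusted p = 0.24), -0.17 ± 0.17 (SE, limma adjusted p = 0.50) and -0.25 ± 0.17 (SE, limma adjusted p = 0.27) on TPM and 0.05, 0.09 and 0.09 after scaling.

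Further genes of the pathway, 121 on 5 lists, were counted in the same way. Of 47 further mitosis genes tested (48 listed), 36, 40 and 37 were lower and 1, 1 and 0 higher in the 3 media, against 17.8%, 17.8% and 22.4% of all genes lower, with medians of -0.74, -0.95 and -0.84. The counts of this list are given on TPM only, and among the mitosis members fewer were called after scaling. PTTG1 (securin, at 145 TPM at Day 16), CDCA8 and the kinesin KIF14 changed by -1.33, -1.32 and -1.22 in RPMI/B27. Of 34 further replication genes, 12, 15 and 6 were lower and 0 higher, with medians of -0.45, -0.51 and -0.35, and after scaling 1, 8 and 1 were lower, against 8.76%, 13.6% and 11.9% of all genes. The HPLM/B27 share lay under that of all genes on both scales, and the RPMI/B27 share after scaling. TIMELESS (-0.78), BRCA1 (-0.75) and EXO1 (-0.72) had the largest called changes of these in RPMI/B27. Of 15 E2F, pocket protein and MuvB genes, 2, 4 and 4 were lower and 1, 0 and 0 higher, shares below that of all genes in RPMI/B27 and above it in the other media, on few genes. TFDP1 (-0.73), the E2F partner, and RBL1 (-0.57) fell in RPMI/B27 and LIN9 (0.55), a MuvB subunit, rose.

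The 4 further CDK inhibitors and 20 p53 response genes also gave more lower than higher calls. CDKN2B, p15, changed by -0.93, -1.51 and -1.19 from 8.19 ± 0.553 TPM at Day 16 (SD, n = 4), and CDKN3, a phosphatase with mitotic expression, by -0.68, -0.84 and -0.87. CDKN2D was higher in HPLM/B27 by 0.72 ± 0.22 (SE, limma adjusted p = 0.025). Of 19 p53 response genes tested, 11, 8 and 10 were lower and 0 higher, against 17.8%, 17.8% and 22.4% of all genes lower. Their medians were -0.55, -0.53 and -0.53, against -0.28, -0.22 and -0.29 for all genes. After scaling 5, 6 and 5 were lower and 1 higher in each, against 8.76%, 13.6% and 11.9% of all genes lower. AEN, a p53-induced nuclease, MDM2, the p53 ubiquitin ligase, and the death receptor TNFRSF10B changed by -0.93, -0.798 and -0.79 in RPMI/B27.

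Promoter motifs were then set beside the calls. In RPMI/B27, the 21 lower genes with a window held a CHR in 12 (57.1%) and an E2F motif in 1 (4.76%), and the 21 genes tested and not lower held a CHR in 4 (19.0%) and an E2F motif in 11 (52.4%). All of the lower genes with a CHR but CCNB2 were mitosis genes, so this split largely repeats the one by role. It also depended on the scaling. Of the lower genes with a CHR, TOP2A, BUB1B, MAD2L1, KIF11, KIF23, CENPF, PRC1 and ANLN lost the call after median-of-ratios scaling, as did TYMS with its E2F motif. The same motifs were counted over all tested genes. The 1616 tested genes with a CHR had a median difference of -0.29 and 21.9% were lower, against -0.29 and 19.6% of the 9219 without, and the shares lower were 23.8% against 18.4% in RPMI_glcM/B27 and 28.96% against 23.8% in HPLM/B27. For E2F, 21.5% of 679 genes with a match and 19.8% of 10156 without were lower in RPMI/B27. The E2F shares were 18.4% against 19.2% in RPMI_glcM/B27 and 25.3% against 24.5% in HPLM/B27. These are counts of letters in a window and were given no test.

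The mitosis and replication genes were compared library by library, as the mean log2(TPM + 1) of the 21 and of the 13 genes minus the Day 16 mean. For mitosis the Day 30 libraries ranged from -1.10 to -0.75 in RPMI/B27, from -1.33 to -1.01 in RPMI_glcM/B27 and from -1.84 to -0.69 in HPLM/B27, outside the Day 16 range of -0.15 to 0.15. For replication they ranged from -0.83 to -0.23, from -0.78 to -0.34 and from -0.54 to -0.17, and the Day 16 libraries from -0.18 to 0.14. In each of the 12 Day 30 libraries the mitosis genes lay further below Day 16 than the replication genes.

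**Figure D4:**
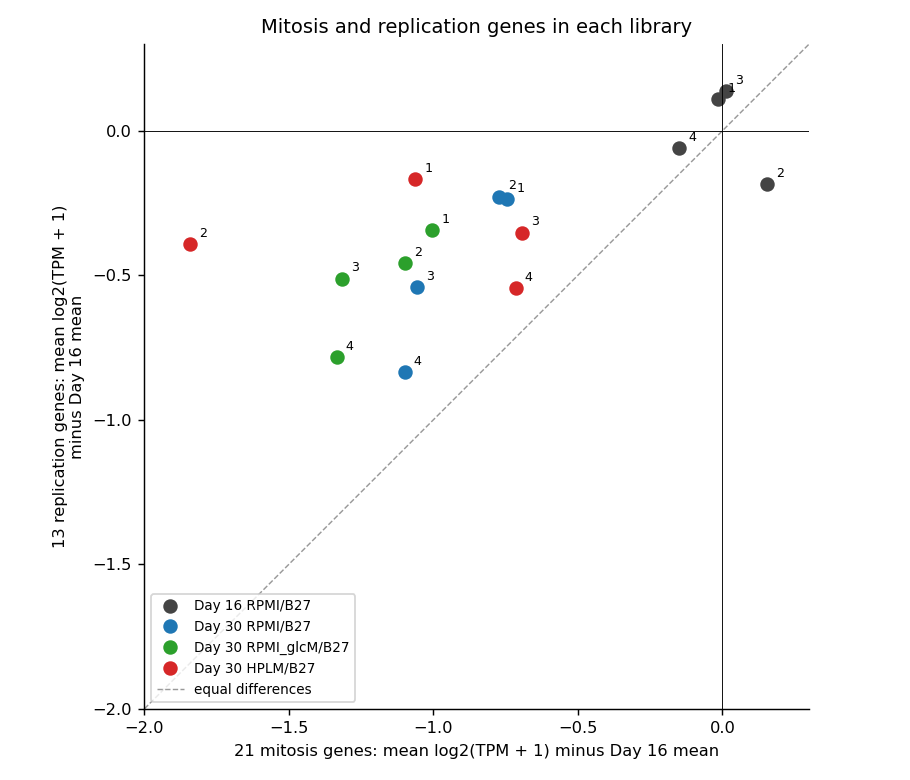
Each point is 1 library, numbered by replicate, with the mean log2(TPM + 1) of 21 mitosis genes (horizontal) and 13 replication genes (vertical) minus the Day 16 mean. All 12 Day 30 points lie above the dashed line of equal differences, and HPLM/B27 replicate 2 is farthest left at -1.84 with a replication value inside the range of the other Day 30 points.

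HPLM/B27 replicate 2 stood apart in mitosis genes. It was the lowest of the 4 HPLM/B27 libraries for 20 of 21 mitosis genes (13.9% of all genes tested) and for 2 of 13 replication genes. After median-of-ratios scaling it remained the lowest of 16 for 18 of 21 mitosis genes, against 5.61% of all genes. Its depth of 11246868 reads and its 138 TPM of RNR1 were inside the range of the other libraries. Without it 31 genes were lower in HPLM/B27 than at Day 16, with a median of -0.62 in place of -0.77. MKI67 was then -0.97, PLK1 -1.13, TOP2A -0.61 and FOXM1 -0.79, each still called (limma adjusted p = 0.00025, 0.00042, 0.023 and 0.011). Among the Day 16 libraries replicate 2 stood apart in replication genes, lowest of the 4 for 8 of 13, against 16.3% of all genes tested, and for 11 of 13 after scaling, against 35.7%, while it was the highest for 17 of 21 mitosis genes on TPM, against 52.98%, and for 8 of 21 after scaling, against 32.8%.

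**Figure D5:**
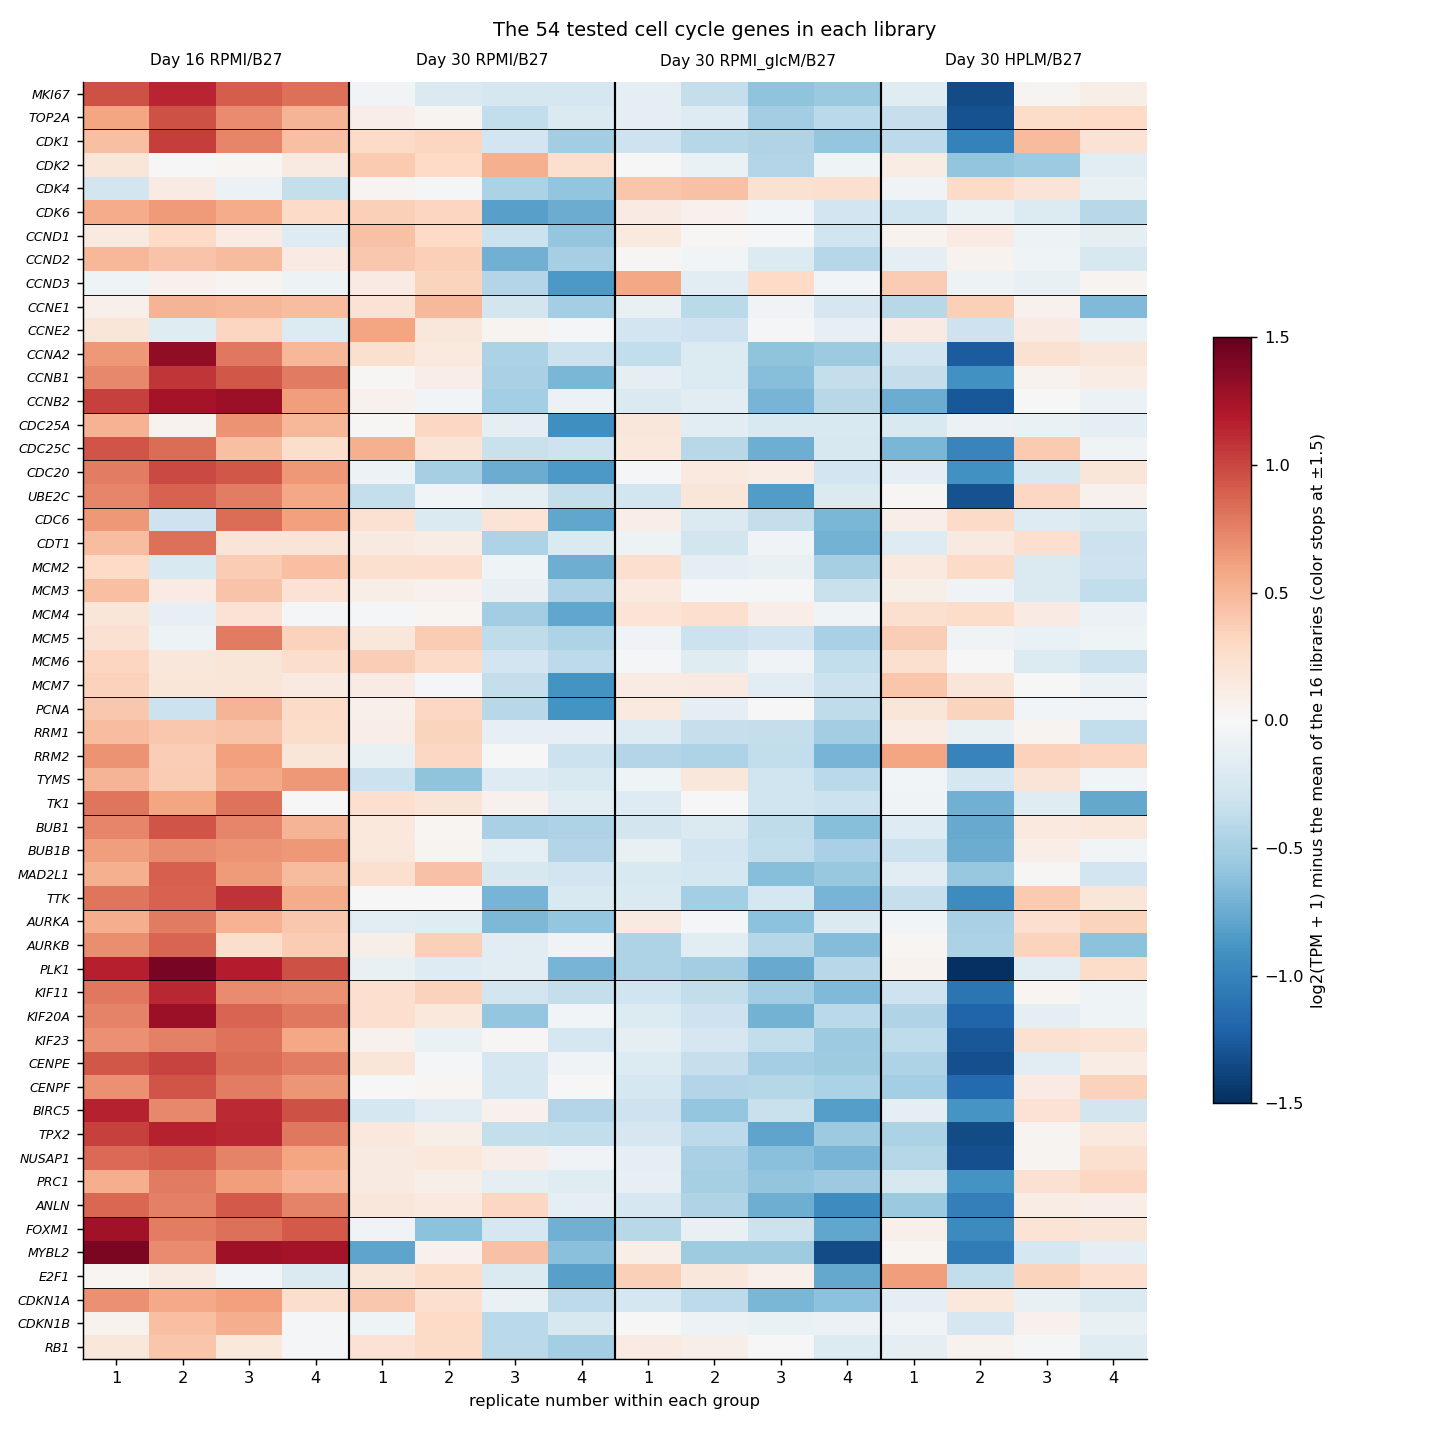
Each row is 1 of the 54 tested genes, grouped by role, and each column 1 of 16 libraries. Color is log2(TPM + 1) minus the mean over the libraries, with all 4 Day 16 columns high in the mitosis rows and HPLM/B27 replicate 2 the lowest in 18 of 21 of them.

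The 3 media were compared with each other at Day 30 to ask whether glucose or the other components of plasma-like medium went with a difference in these genes. Few calls were made. RPMI_glcM/B27 against RPMI/B27, the test of glucose, gave 0 calls among 54 genes, against 2.20% of all genes in either direction. HPLM/B27 against RPMI/B27 gave 1 (CDK2), against 2.41%. HPLM/B27 against RPMI_glcM/B27, at matched glucose, gave 0, against 0.0682% (11 genes). The median differences of the 54 genes were -0.21, -0.07 and 0.10, and without HPLM/B27 replicate 2 the latter 2 became 0.04 and 0.25. For MKI67 the 3 differences were -0.22 ± 0.24 (SE, limma adjusted p = 0.73), -0.15 ± 0.24 (SE, limma adjusted p = 0.84) and 0.07 ± 0.24 (SE, limma adjusted p = 0.98). Without replicate 2 the last became 0.3997, with the mean of HPLM/B27 then above that of RPMI_glcM/B27 and no call (limma adjusted p = 0.49).

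CDK2, the kinase of cyclins E and A, stood at 16.8, 14.6, 14.9 and 16.2 TPM at Day 16, 19.5, 18.2, 21.7 and 17.5 in RPMI/B27, 14.6, 13.6, 10.5 and 13.97 in RPMI_glcM/B27 and 15.9, 9.42, 9.76 and 13.02 in HPLM/B27. The RPMI/B27 libraries were the highest, above every library of the other 3 groups. Against RPMI/B27, CDK2 was lower in HPLM/B27, with -0.66 ± 0.15 (SE, limma adjusted p = 0.031), and had -0.52 ± 0.15 (SE, limma adjusted p = 0.094) in RPMI_glcM/B27. The call was lost without HPLM/B27 replicate 2 (-0.56, limma adjusted p = 0.11) and after median-of-ratios scaling (-0.65, limma adjusted p = 0.051). It was also lost without any of 4 other libraries of the 8 compared. Against Day 16, CDK2 had 0.28 ± 0.15 (SE, limma adjusted p = 0.20), -0.24 ± 0.15 (SE, limma adjusted p = 0.29) and -0.38 ± 0.15 (SE, limma adjusted p = 0.077), and limma-voom on the recovered reads called it higher in RPMI/B27 (0.63, limma adjusted p = 0.028).

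More genes differed between media after median-of-ratios scaling. RPMI_glcM/B27 was lower than RPMI/B27 in CDKN1A (-0.598, limma adjusted p = 0.0005), RRM1 (-0.47), MAD2L1 (-0.53) and ANLN (-0.78), and higher in CDK4 (0.53) and MCM4 (0.39). HPLM/B27 was higher than RPMI/B27 in CDK4 (0.35), MCM4 (0.47) and MCM7 (0.43). CDKN1A was higher in HPLM/B27 than in RPMI_glcM/B27 by 0.49 (limma adjusted p = 0.0076), where TPM gave 0.41 ± 0.16 (SE, limma adjusted p = 0.62). The CDKN1A values in HPLM/B27, 98.0 to 128 TPM, all lay above those in RPMI_glcM/B27, 70.5 to 94.9 TPM.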

How the data were processed

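RNA from 16 wells was measured by the authors with stranded total RNA libraries, aligned with STAR 2.5.3a to hg38 with decoy sequences and counted per gene with featureCounts 2.0.3. The authors deposited TPM (transcript levels per gene length, scaled to a fixed sum per library), and the annotation, gene lengths and strand setting behind them are not given in the sources used here. Their own test was DESeq2 on counts, which does not suit TPM, so limma 3.58.1 (R 4.3.3, trend) was fitted to log2(TPM + 1) over the 16 libraries in 4 groups, keeping a gene if it averaged 1 TPM or more, two-sided, with Benjamini-Hochberg adjustment. This scale understates the change of low genes.

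TPM within a library are whole multiples of 1 read per gene length, and whole reads were recovered for 31047 of 31047 genes above 0, all within 0.01 of a whole number. On data simulated for RPMI/B27 against Day 16 over 15855 genes, 196 of 200 changed genes were recovered with 5 false calls. Whether this rate holds for the measured cell cycle calls was not tested. Of the 27 measured in that comparison, 15 were lost after median-of-ratios scaling. The members and gene lists were chosen with earlier results of these data known. Values in every library are given for the member of each role with the smallest adjusted p in RPMI/B27 against Day 16, for all inhibitors and D-type cyclins, for both members of roles of 2, and for members called between media. Further pathway genes are named for the 3 largest called changes in a list. Alternatives were another pseudocount, other filters, 2 other scalings, the compared groups alone, a replicate block, RNR1 as a covariate, limma-voom on recovered reads with at least 10 reads on average, with and without RNR1, and leaving out each library. Counting error only lies behind read numbers. Promoters came from RefSeq windows.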

Additional observations from a re-analysis of the deposited data

Results flagged for a closer look

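In each group of 4 wells, the highest or lowest value was checked for its distance from the others, for each of the 23 genes given in every library. Of 92 groups of wells 6 held such a value, and chance marks about 1 in 20 groups. MKI67 stood at 18.2 TPM in Day 30 RPMI/B27 replicate 1, above 15.6 to 16.01 TPM in the other wells. PLK1 stood at 5.94 TPM in RPMI/B27 replicate 4, a library rich in RNR1, below 8.89 to 9.46 TPM in the others. FOXM1 stood at 3.10 TPM in HPLM/B27 replicate 2, the library low in mitosis genes, below 7.395 to 8.15 TPM. CDC25A stood at 7.72 TPM in RPMI_glcM/B27 replicate 1, above 5.61 to 5.93 TPM. CDKN1C, near the limit of detection, was at 0.591 TPM in RPMI_glcM/B27 replicate 2 and at 0 in the others of that medium. CDKN2A was at 0.918 TPM in Day 16 replicate 4, below 1.298 to 1.37 TPM.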

How the results depend on the processing

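With RPMI/B27 against Day 16, 27 cell cycle genes were lower, and 12 after median-of-ratios scaling and 13 with RNR1 as a covariate. Leaving out 1 library gave 17 to 37, with 17 without Day 16 replicate 3 or RPMI/B27 replicate 4. RPMI_glcM/B27 and HPLM/B27 against Day 16 gave 36 and 34 calls, and 30 to 36 and 29 to 34 with 1 library left out. RPMI_glcM/B27 against RPMI/B27 gave 0 calls, 6 after median-of-ratios scaling, 7 when scaled without mitochondrial, ribosomal RNA, RN7SK and RN7SL genes, 4 with the replicate block, 3 with RNR1 as a covariate, 6 by limma-voom on recovered reads, 8 by limma-voom with RNR1, and 0 to 1 with 1 library left out. HPLM/B27 against RPMI/B27 gave 1 call, 0 with all genes above 0 or only the 2 groups fitted, 3 after median-of-ratios scaling, 2 when scaled without those genes, 4 by limma-voom, 5 by limma-voom with RNR1, and 0 to 1 with 1 library left out. HPLM/B27 against RPMI_glcM/B27 gave 0 calls, 1 after median-of-ratios scaling, 1 by limma-voom and 2 by limma-voom with RNR1, where limma on TPM gave 1053 of all genes an unadjusted p under 0.05.

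In RPMI/B27 against Day 16 the sign of 6 uncalled genes turned after median-of-ratios scaling, with CDK4 then at 0.201, E2F1 at 0.12 and MCM6 at 0.08. CCND1 was 0.21 after median-of-ratios scaling, 0.064 when scaled without the named genes, 0.19 with RNR1, 0.21 by limma-voom, 0.28 by limma-voom with RNR1 (limma adjusted p = 0.025), and -0.29 to 0.045 with 1 library left out. CCND3 was 0.048 after median-of-ratios scaling, 0.09001 by limma-voom, 0.051 by limma-voom with RNR1, and -0.39 to 0.013 with 1 library left out. The upper ends were those without RPMI/B27 replicate 4. RB1 was 0.052 after median-of-ratios scaling, 0.026 with RNR1, 0.052 by limma-voom and 0.11 by limma-voom with RNR1. The cause was not tested. Of the calls against Day 16, 9 of 27, 26 of 36 and 21 of 34 held in every alternative. The wells were not treated as paired in the fit. Deviations of same-numbered wells correlated at -0.066 to 0.211, with a median of 0.023. Of these pairs 6 of 24 passed 0.1, against 2 of 72 differently numbered pairs, and 7 of 16 wells correlated best with their own number. RNR1 stood at 3793, 29276, 6806 and 5889 TPM in replicate 4 of the 4 groups, and also at 4872 in RPMI_glcM/B27 replicate 3 and 6359 in HPLM/B27 replicate 1. Whether wells of the same number share a batch was not tested. The replicate block gave 34, 41 and 37 calls against Day 16. Genes at few reads, such as CDKN1C, E2F2 and CDKN2A, are limited by depth.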
